A study of Mesocricetus auratus with 38 samples.

Results

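Genes of carnitine synthesis and of the carnitine shuttle were followed in hamster liver RNA. The set was fixed by gene symbol as Slc22a5, Cpt1a, Slc25a20, Cpt2, Crat, Crot, Tmlhe, Aldh9a1 and Bbox1. Of these 9 genes, 8 had a row among the 14631 gene symbols of the tables, and all 8 were among the 9099 genes that passed the filter on low counts. Crat (carnitine acetyltransferase) was not analysed here.

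The study fed male Golden Syrian hamsters for 12 weeks and took liver at an age of 22 weeks. In the HFD group (HFD, n = 10) fat supplied 23% of the calories and cholesterol was added to the feed. The Dose I group (HFD + MI_D1, n = 9) and the Dose II group (HFD + MI_D2, n = 10) ate the same HFD and received combined metabolic activators (CMA) in the last 4 weeks. In the control group (Control, n = 9), on a normal diet, fat supplied 11% of the calories, and no CMA was given. CMA is a mixture of L-carnitine, N-acetylcysteine (NAC), nicotinamide riboside (NR) and betaine. At Dose I, L-carnitine, NAC and NR were given at 200 mg/kg each and betaine at 400 mg/kg. At Dose II these amounts were 400 mg/kg for the first 3 components and 800 mg/kg for betaine. L-carnitine, the small molecule that these genes make and use, was thus given only in the 2 dose groups and always together with the other components, so its own part cannot be told apart from theirs. The labels name no animal and no batch, so each library stands for 1 animal here and p-values measure the spread between these samples.

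Carnitine carries long-chain fatty acids into mitochondria for oxidation. It enters the cell through a transporter of the plasma membrane or is made from trimethyllysine by a chain of enzymes. On the mitochondrial membranes a transferase puts the fatty acid on carnitine, a carrier exchanges the acylcarnitine for free carnitine, and another transferase moves the fatty acid back to coenzyme A. In liver the first transferase is regarded as the main control point of fatty acid oxidation, because malonyl-CoA, the building block of fatty acid synthesis, inhibits it.

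Total estimated counts were 4075609 to 10384523 per library. Single libraries are called by their label number with a prefix, which is C in controls, H in HFD livers and DII in Dose II livers. One control library, C105, stood apart, with a score of 19.2 on the first principal component (27.5% of the variance) against −23.1 to 12.3 in the other 37 libraries. The study left out 1 control library after such an analysis. C105 was taken to be that library and was left out of the main fit, and values with it are given where a call changes. For the carnitine genes this choice matters. C105 lay outside the range of the other 8 controls for 7 of the 8 genes. Its Cpt1a level was 31.8 CPM (counts scaled to a common library size), below every other library of the series. In bulk liver, fewer cells of a type and less RNA per cell cannot be told apart.

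The first comparison asks how the HFD altered these genes. Cpt1a and Tmlhe fell most in HFD livers, Crot and Slc22a5 fell as well, and Bbox1 and Aldh9a1 rose. Of the 8 genes, 4 fell and 2 rose at an adjusted p under 0.1 (edgeR quasi-likelihood test with Benjamini-Hochberg adjustment over all genes, the study's threshold). Among all genes tested, 36.2% were called in this comparison, 18.1% in each direction. The median log2 fold change was −0.29 over the 8 genes and 0.01 over all genes tested. With C105 in the fit, 3 fell and 1 rose, where 15.6% of all genes were called, 8.94% falling and 6.63% rising. Without C106, 2 fell (Cpt1a and Tmlhe) and 1 rose (Aldh9a1). Over all genes, the fits with 1 library left out gave 2878 to 3478 calls in this comparison.

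**Figure D1:**
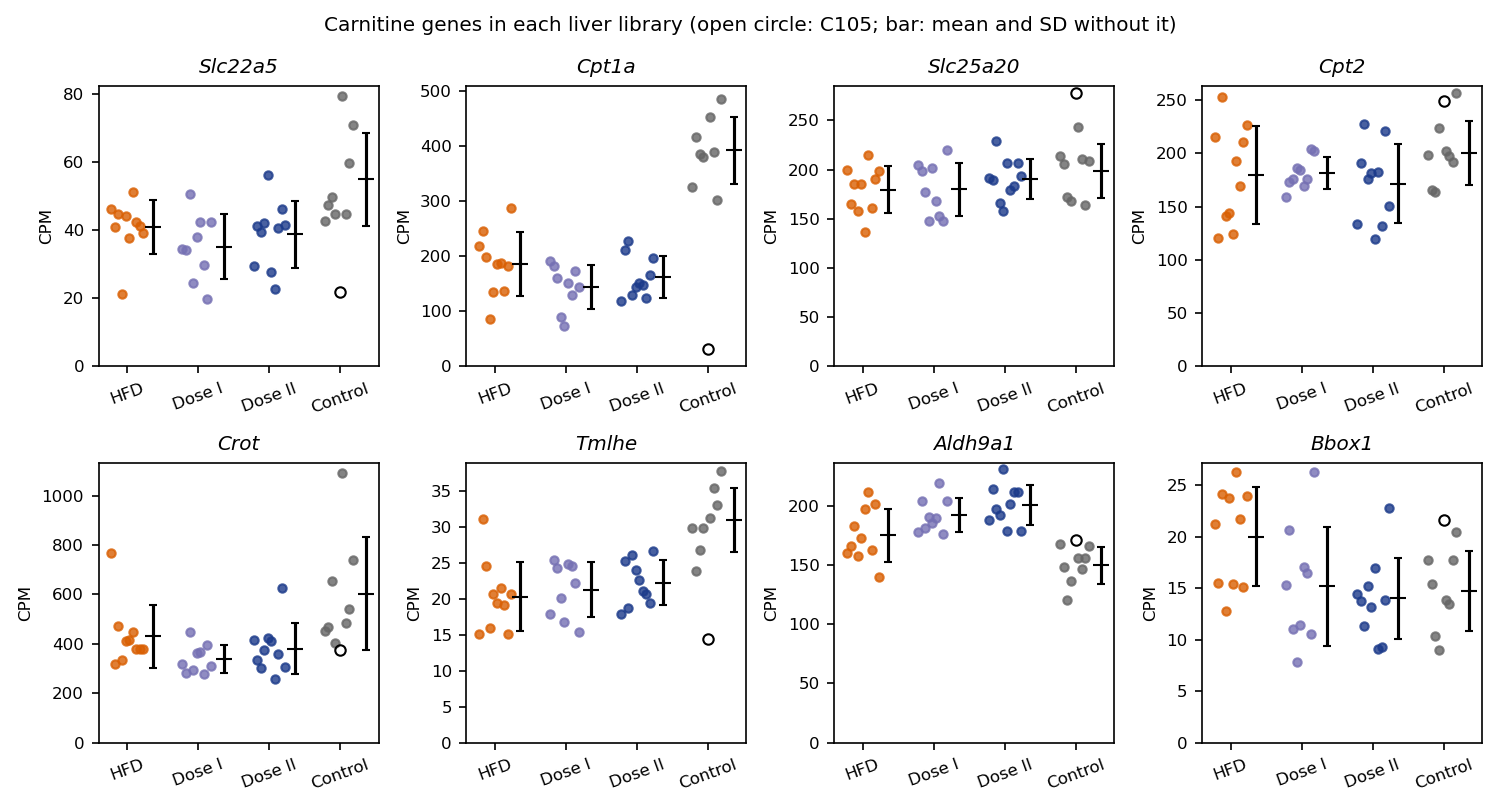
CPM of each of the 8 carnitine genes (vertical axes, linear, from 0) in every liver library, by group; filled points are libraries, the open circle is C105, and bars give the mean and SD without it. Cpt1a lies between 85.4 and 287 CPM in HFD livers and between 302 and 486 CPM in the other 8 controls, while the HFD and control points of Slc25a20 and Cpt2 overlap.

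Slc22a5 (OCTN2) is the transporter that takes carnitine up across the plasma membrane. Its level was lowest 21.3, median 41.9 and highest 51.3 CPM in HFD livers, against 42.6, 48.6 and 79.4 CPM in control livers. The groups overlapped, with 6 of the 10 HFD libraries below every control. Slc22a5 fell by 0.43 on the log2 scale (SE 0.16, edgeR adjusted p = 0.0431). It was lost with C105 included (log2 fold change −0.33, edgeR adjusted p = 0.232), without C106 (−0.33, edgeR adjusted p = 0.12), without C109 (−0.36, edgeR adjusted p = 0.109) and without H113 (−0.34, edgeR adjusted p = 0.102).

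Cpt1a encodes the transferase of the outer mitochondrial membrane that forms acylcarnitines. In HFD livers its lowest, median and highest levels were 85.4, 186 and 287 CPM, against 302, 387 and 486 CPM in control livers. All 10 HFD libraries lay below all 8 controls, a separation that 1.8% of all genes tested showed in this comparison. The mean was 186 ± 57.9 CPM in HFD livers (SD, n = 10) and 392 ± 60.6 CPM in control livers (SD, n = 8). Cpt1a fell to 0.474 of the control level, a log2 fold change of −1.08 (SE 0.17, 95% interval −1.43 to −0.73, edgeR adjusted p = 3.07e-05). The call held with each of the 37 libraries left out in turn. With C105 the log2 fold change was −0.92 (edgeR adjusted p = 0.0142), but the groups then overlapped, since that library had the lowest Cpt1a of all.

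The next steps of the shuttle did not pass the test. Slc25a20, the carnitine-acylcarnitine carrier of the inner membrane, averaged 180 ± 23.8 CPM in HFD livers and 198 ± 27.6 CPM in control livers (SD, n = 10 and 8). Its log2 fold change was −0.14 (95% interval −0.33 to 0.04, edgeR adjusted p = 0.247). Cpt2, the transferase of the inner membrane, averaged 180 ± 46.3 CPM in HFD livers and 200 ± 30.1 CPM in control livers (SD, n = 10 and 8). Its log2 fold change was −0.15 (95% interval −0.41 to 0.10, edgeR adjusted p = 0.384). These intervals leave room for a modest decrease of either gene, and neither reaches the size of the Cpt1a change. Slc25a20 was called when a length trend was taken out of each library (−0.20, edgeR adjusted p = 0.0919).

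The balance of the 2 transferases can be read from TPM, transcript abundances scaled by length and library total. The ratio of Cpt1a to Cpt2 TPM was 0.724 to 2.48 in HFD livers (median 1.16), 0.475 to 1.46 in Dose I livers (median 1.03), 0.879 to 1.59 in Dose II livers (median 1.10) and 1.92 to 3.06 in control livers (median 2.34). Controls thus held more Cpt1a than Cpt2 transcript in each of the 8 libraries. The medians of HFD, Dose I and Dose II livers were close together and below the lowest control. Both dose groups did not overlap the controls, while the HFD group did through its highest value of 2.48, from H111 (Cpt1a 120.8 TPM, Cpt2 48.6 TPM). Differences of the ratio between groups were not tested, and no share over other pairs of genes was computed. C105 was at 0.155.

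Crot moves medium-chain acyl groups onto carnitine in peroxisomes, from where they pass to mitochondria. In HFD livers its lowest, median and highest levels were 319, 396 and 767 CPM, against 402, 512 and 1092 CPM in control livers. The ranges overlapped, with 5 of the 10 HFD libraries below every control. Crot fell by 0.49 on the log2 scale (SE 0.17, edgeR adjusted p = 0.0255). One control decided the call: without C106, which had the 1092 CPM, the log2 fold change was −0.31 (edgeR adjusted p = 0.132).

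Carnitine synthesis moved in both directions. Tmlhe, the first enzyme of the pathway, which hydroxylates trimethyllysine, had a lowest, median and highest level of 15.1, 20.1 and 31.1 CPM in HFD livers, against 23.9, 30.6 and 37.8 CPM in control livers. Of the 10 HFD libraries 8 were below every control. Tmlhe fell by 0.61 on the log2 scale (SE 0.12, edgeR adjusted p = 0.000313), and the call held with each library left out in turn and with C105 (edgeR adjusted p = 0.0105).

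Aldh9a1 is the aldehyde dehydrogenase of the same pathway. It had a lowest, median and highest level of 140, 169 and 211 CPM in HFD livers, against 120, 152 and 167 CPM in control livers. The ranges overlapped, and 5 of the 10 HFD libraries were above every control. Aldh9a1 rose by 0.23 on the log2 scale (SE 0.07, edgeR adjusted p = 0.0193), and the call held with C105 (edgeR adjusted p = 0.0736).

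Bbox1 encodes gamma-butyrobetaine hydroxylase, the last enzyme, which yields carnitine. Its level was 12.8, 21.5 and 26.2 CPM (lowest, median and highest) in HFD livers, against 9.03, 14.6 and 20.4 CPM in control livers. The ranges overlapped, and 6 of the 10 HFD libraries were above every control. Bbox1 rose by 0.44 on the log2 scale (SE 0.19, edgeR adjusted p = 0.0779). This is the weakest call of the set. It was lost with C105 (0.37, edgeR adjusted p = 0.208) and without any one of 10 libraries, namely C103, C104, C106, C107, H110, H112, H114, H116, H117 and H119 (0.35 to 0.43, edgeR adjusted p = 0.102 to 0.168).

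**Figure D2:**
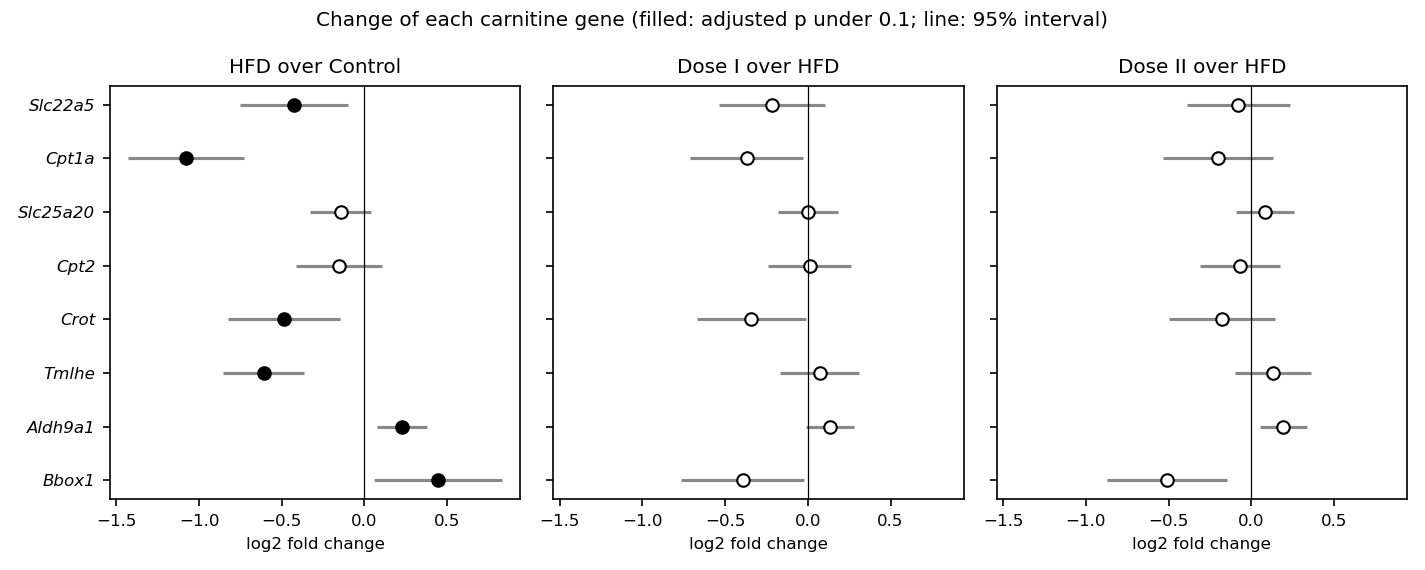
Log2 fold change of each carnitine gene (horizontal axes) in HFD over Control, Dose I over HFD and Dose II over HFD; points are edgeR estimates, lines are 95% intervals, and filled points have an adjusted p under 0.1. Filled points stand only in the diet panel, from −1.08 for Cpt1a to 0.44 for Bbox1.

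The second question is what CMA did on top of the HFD. None of the 8 genes passed the test at either dose. For Dose I vs. HFD, 0 of 8 genes were called by edgeR, 0 by DESeq2 and 0 by limma on TPM, where edgeR called 0.187% of all genes. Of the 8 genes 3 had an unadjusted p under 0.05, as had 844 of the 9099 genes tested. For Dose II vs. HFD, 0 of 8 were called by edgeR, 2 by DESeq2 and 1 by limma on TPM, where edgeR called 5.63% of all genes and DESeq2 641 of 8978. Of the 8 genes 2 had an unadjusted p under 0.05 in edgeR, as had 1692 of the 9099 genes tested. Between Dose II and Dose I, 0 of 8 genes and 0% of all genes were called by edgeR, and 0 genes by DESeq2 and by limma. None of the 8 and 271 of all genes had an unadjusted p under 0.05 there. Both CMA comparisons use the same 10 HFD libraries, so their values are set side by side and not counted as repeats of each other.

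No rise of Cpt1a was detected in either dose group, as the study also reports from these samples. Its lowest, median and highest levels were 85.4, 186 and 287 CPM in HFD livers, 72.1, 152 and 190 CPM in Dose I livers and 117.9, 150 and 228 CPM in Dose II livers. The groups overlapped, and 1 of 9 Dose I libraries and 3 of 10 Dose II libraries were above the HFD median. The log2 fold change against HFD was −0.37 for Dose I (95% interval −0.71 to −0.03, edgeR adjusted p = 0.489) and −0.20 for Dose II (95% interval −0.54 to 0.13, edgeR adjusted p = 0.543). Against this, the log2 fold change of HFD over Control was −1.08, and the upper ends of both intervals are smaller in size than that change.

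Bbox1 was the gene nearest to the threshold. Its level was 12.8, 21.5 and 26.2 CPM (lowest, median and highest) in HFD livers, 7.82, 15.3 and 26.3 CPM in Dose I livers and 9.12, 13.8 and 22.8 CPM in Dose II livers. The ranges overlapped, but only 1 library of each dose group was above the HFD median. The log2 fold change against HFD was −0.39 for Dose I (SE 0.18, edgeR adjusted p = 0.498) and −0.51 for Dose II (SE 0.18, edgeR adjusted p = 0.108). For Dose II this sat on the threshold. DESeq2 called it (−0.51, adjusted p = 0.0753), edgeR called it in 9 of the 37 fits with a library left out (lowest adjusted p = 0.0501, without DII138), and the fit with C105 did not (adjusted p = 0.163).

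Aldh9a1 had a lowest, median and highest level of 140, 169 and 211 CPM in HFD livers, 176, 189 and 220 CPM in Dose I livers and 178, 200 and 231 CPM in Dose II livers. Although the ranges overlapped, 9 of 9 Dose I and 10 of 10 Dose II libraries were above the HFD median. The log2 fold change against HFD was 0.13 for Dose I (SE 0.07, edgeR adjusted p = 0.577) and 0.19 for Dose II (SE 0.07, edgeR adjusted p = 0.114). DESeq2 called the Dose II difference (0.19, adjusted p = 0.0846), and edgeR called it in 3 of the 37 fits with a library left out, those without C103, H116 or DII134 (lowest adjusted p = 0.0606). The study itself names this gene for Dose II from these samples, so its direction there is not independent evidence.

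For Crot the log2 fold change was −0.34 at Dose I (SE 0.16, edgeR adjusted p = 0.516) and −0.18 at Dose II (SE 0.16, edgeR adjusted p = 0.584). Slc22a5 stood at −0.22 at Dose I and −0.08 at Dose II, and Tmlhe at 0.07 and 0.13, with intervals that include 0. The log2 fold changes of Slc25a20 (0.00 and 0.08) and Cpt2 (0.01 and −0.07) were the smallest of the set at Dose I and near 0 at Dose II. Over all 8 genes the 95% intervals ran from −0.87 to 0.36 for Dose II and from −0.76 to 0.31 for Dose I, which does not show that CMA left these genes alone.

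Set against the controls, the dose groups showed the same called genes with 1 exception, Bbox1. These comparisons share the control libraries with the diet comparison and are no separate evidence for its direction. In Dose I livers 4 genes fell and 1 rose, where 40.7% of all genes were called, 20.6% rising and 20.1% falling. In Dose II livers 4 fell and 1 rose, where 47.4% were called, 23.9% rising and 23.4% falling. The log2 fold change of Cpt1a was −1.45 in Dose I livers (edgeR adjusted p = 3.5e-07) and −1.28 in Dose II livers (edgeR adjusted p = 4.47e-07), with no overlap with the 8 controls in either. Crot stood at −0.83 and −0.66, Slc22a5 at −0.64 and −0.50, and Tmlhe at −0.54 and −0.48 in Dose I and Dose II livers (edgeR adjusted p = 0.000327 to 0.011), and all these calls held with C105 (highest adjusted p = 0.0797).

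Aldh9a1 was the other gene that left the control range. It rose by 0.36 on the log2 scale in Dose I livers (SE 0.08, edgeR adjusted p = 0.000391) and by 0.42 in Dose II livers (SE 0.07, edgeR adjusted p = 2.22e-05). All 9 Dose I and all 10 Dose II libraries were above all 8 controls, where 3.68% and 4.95% of all genes had groups that did not overlap, those lower than the controls included. C105, at 171 CPM, was also below every library of both dose groups. Bbox1 was at 0.05 in Dose I and −0.07 in Dose II livers against the controls (edgeR adjusted p = 0.876 and 0.809), and the test of each dose against HFD, given above, was not passed.

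Transcript levels can be compared between genes in TPM. In HFD livers the order was Slc25a20 (146 TPM), Crot (146 TPM), Cpt1a (91.4 TPM), Aldh9a1 (77.3 TPM), Cpt2 (72.7 TPM), Slc22a5 (31.5 TPM), Tmlhe (11.6 TPM) and Bbox1 (9.53 TPM). In control livers it was Crot (209 TPM), Cpt1a (196 TPM), Slc25a20 (165 TPM), Cpt2 (82.1 TPM), Aldh9a1 (66.7 TPM), Slc22a5 (43.1 TPM), Tmlhe (17.9 TPM) and Bbox1 (7.13 TPM). The first 3 genes overlapped in their SDs in control livers, as did Cpt1a, Aldh9a1 and Cpt2 in HFD livers. The place of Cpt1a differed most between groups, at rank 3 in HFD livers, 5 in Dose I livers (68.3 TPM), 4 in Dose II livers (76.4 TPM) and 2 in control livers. Slc22a5, Tmlhe and Bbox1 kept the last 3 places in all 4 groups.

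**Figure D3:**
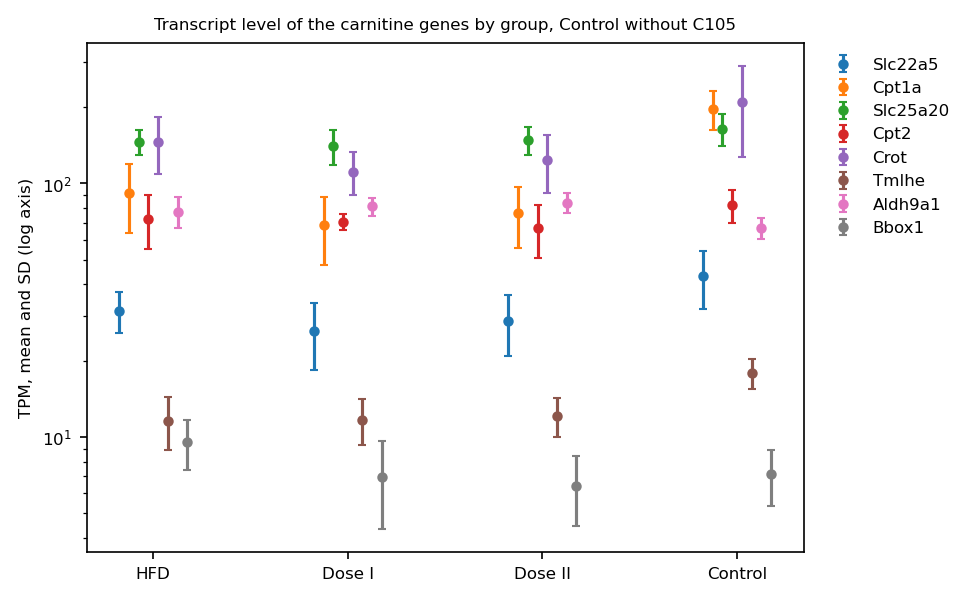
Mean TPM of the 8 carnitine genes (vertical axis, log scale) in each group; points are means and bars are SDs over libraries, Control without C105. Cpt1a stands at 91.4 TPM in HFD and 196 TPM in Control, beside Cpt2 at 72.7 TPM in HFD and 82.1 TPM in Control.

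With group means removed, the members varied together only loosely over the 37 libraries, which share depth and composition. The highest Pearson r was 0.50 for Slc22a5 with Crot, followed by 0.47 for Slc25a20 with Bbox1, and the lowest was −0.25 for Slc25a20 with Tmlhe. Cpt1a reached at most 0.33, with Slc25a20 and with Tmlhe.

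**Figure D4:**
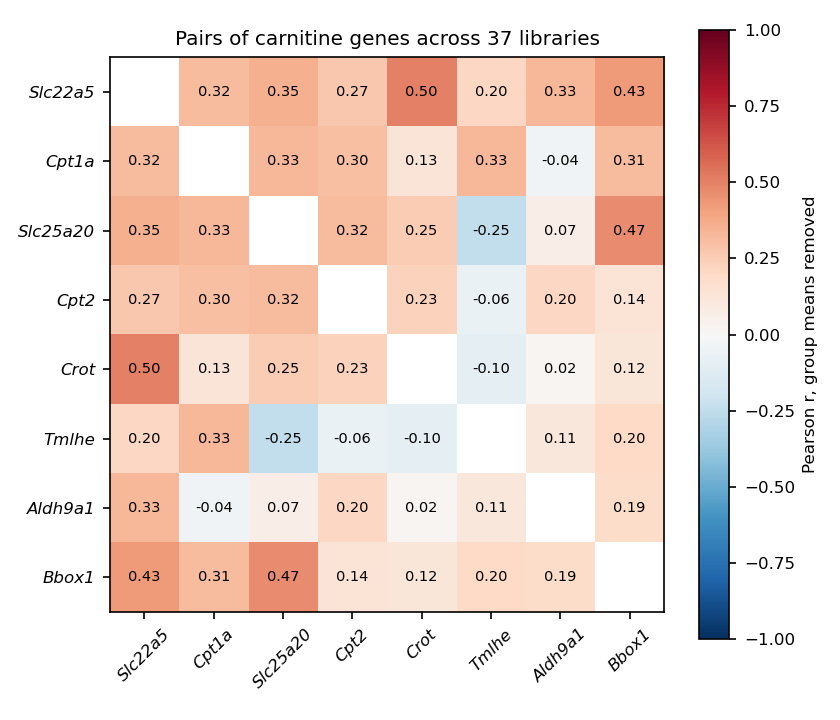
Pearson r of log2 CPM for each pair of carnitine genes after group means were removed (37 libraries, both axes list the genes, colour and printed number give r from −1 to 1). Most pairs are weakly positive, and Slc22a5 with Crot is the highest at 0.50.

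Genes whose pattern was most like each called member were sought over all 37 libraries with group differences left in, by Pearson r of log2 CPM. Sec23a (0.85), Dcaf7 (0.84) and Gpd2 (0.83) came first for Cpt1a, and Nfe2l1 (0.80), Sec16b (0.78) and Abcd3 (0.77) for Slc22a5. For Crot they were Abcb4 (0.89), Hacd3 (0.79) and Ppp2r1b (0.78). Abcb4 is the neighbour of Crot in the mouse genome, and whether reads are shared between them was not tested. For Tmlhe they were Mmut (0.88), Itfg1 (0.87) and Dpyd (0.86), for Aldh9a1 Phyh (0.82), Cfap20 (0.77) and Slc39a1 (0.77), and for Bbox1, with the loosest match, Myo5b (0.60), Slc17a4 (0.59) and Aspa (0.58).

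Steps around the shuttle were called in both directions in HFD livers. Acyl-CoA synthetases make the acyl-CoA that Cpt1a uses, and 2 of the 4 tested fell in HFD vs. control, Acsl1 (log2 fold change −0.38) and Acsl5 (−0.71), with none rising, a share of 50% beside 36.2% of all genes. Both calls held with C105. Of 8 genes around malonyl-CoA, Mlycd, which degrades malonyl-CoA, rose by 0.88 on the log2 scale (edgeR adjusted p = 0.00038). Acaca, which makes it, fell by 0.74 (edgeR adjusted p = 0.0555) and Prkaa2, a catalytic subunit of AMP kinase, fell by 0.65 (edgeR adjusted p = 0.0266). With C105 only Mlycd of these was called (0.71, edgeR adjusted p = 0.013). The share called was 37.5% of this list, and 12.5% with C105.

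The called genes of the mitochondrial and peroxisomal oxidation lists had log2 fold changes smaller in size than that of Cpt1a. Of 16 genes listed here under mitochondrial beta-oxidation 4 fell and none rose, with Acad11 (−0.34), Etfdh (−0.27), Acadl (−0.19) and Echs1 (−0.18). The place of each listed enzyme in the cell was not checked. Of 12 peroxisomal genes 2 fell, Abcd3 (−0.62), a fatty acid importer, and Ehhadh (−0.76), the bifunctional enzyme, and Ech1 rose (0.37), which was not called with C105 (0.21, edgeR adjusted p = 0.321). The share called was 25% of each oxidation list, beside 36.2% of all genes. With C105 it was 25% of the mitochondrial and 16.7% of the peroxisomal list, beside 15.6% of all genes, so the order of the shares turned round.

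Ppara encodes the nuclear receptor PPARα, a known activator of Cpt1a in liver. It averaged 49.2 ± 18.0 CPM in HFD livers and 102.03 ± 31.6 CPM in control livers (SD, n = 10 and 8) and fell by 1.05 on the log2 scale (edgeR adjusted p = 0.000699). Its partner Rxra fell by 0.45 and the receptor Nr1h4 (FXR) by 0.42, while Esrra (ERRα) rose by 0.62. In all, 2 of 12 genes of this list rose and 4 fell, a share of 50% beside 36.2% of all genes. With C105 1 rose and 3 fell, 33.3% beside 15.6% of all genes. Of 17 known PPARα targets outside the carnitine set, 3 fell, Cd36 and Ehhadh among them, and 1 rose (Creb3l3, 0.29, not called with C105). The share called was 23.5% beside 36.2% of all genes, and with C105 it was 17.6% beside 15.6%.

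In Dose II vs. HFD livers few of these neighbours were called. Shmt2, a serine hydroxymethyltransferase listed for its possible aldolase step in carnitine synthesis, rose by 0.59 (edgeR adjusted p = 0.0116). The study names this rise among genes of folate metabolism from these samples, so its direction is not independent evidence. In HFD vs. control, which shares the HFD libraries, Shmt2 fell by 0.48 (edgeR adjusted p = 0.0128). It was the only called gene there of the 3 other carnitine-related genes tested. It averaged 186 ± 27.0 CPM in Dose II, 123.5 ± 39.1 CPM in HFD and 172 ± 24.4 CPM in control livers (SD, n = 10, 10 and 8). Abcd3 fell by 0.55 (edgeR adjusted p = 0.0142). Plin2, a lipid droplet protein and PPARα target, fell by 1.41 (edgeR adjusted p = 0.0864), a call lost with C105 (adjusted p = 0.116). Against the controls, whose libraries are shared with the diet comparison, Acsl5 stood at −1.18 in Dose I and −1.25 in Dose II livers. Abcd3 stood at −1.06 and −1.17, Acaca at −1.23 and −1.30, and Ppara at −1.08 and −1.12. All these were called by edgeR with and without C105. Called rises there included Esrra at 0.75 and 0.92 and Ech1 at 0.54 and 0.59, both kept with C105. Mlycd rose by 0.54 and 0.70, a call lost with C105 in Dose I livers. Of the 12 peroxisomal genes 2 rose and 2 fell in Dose I livers, and 3 rose and 2 fell in Dose II livers. Among all genes, 40.7% and 47.4% were called in these comparisons. The median log2 fold change of the 16 genes listed under mitochondrial beta-oxidation against HFD was 0.04 for Dose I and 0.09 for Dose II.

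Markers of liver cells moved with the diet too. The summed level of 9 hepatocyte markers was 146255 to 209718 CPM in HFD livers against 225077 to 266694 CPM in control livers, without overlap. Such a sum weighs the most abundant markers most, and how often sums of other genes separate these groups was not computed. Taken singly, 2 markers were higher and 4 lower at the threshold (18.1% of all genes in each direction), with a median log2 fold change of −0.21 over the 9. The sum of 12 Kupffer cell and macrophage markers was 306 to 494 CPM in HFD livers against 216 to 299 CPM in control livers, and 7 of the 12 rose, beside 18.1% of all genes. In Dose II livers that sum was 215 to 403 CPM, and 5 of the 12 fell against HFD, as did 205 of all 9099 genes. With C105 in the fit, 3 of the 12 rose in HFD livers, 1 fell in Dose II livers, and of the hepatocyte markers 2 fell and none rose in HFD livers. Their part in the carnitine results was not tested. Adipocyte markers were at most 0.339 CPM in sum in any library, and C105 had the hepatocyte sum of 299974 CPM and a macrophage sum of 559 CPM, both above all other controls.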

How the data were processed

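Hamster liver RNA was sequenced in 38 libraries on the Illumina NovaSeq platform. The authors ran kallisto with the hamster genome MesAur1.0 and deposited its estimated counts per gene symbol, not normalized, and TPM, which are scaled by transcript length and library total. Here the estimated counts were rounded. Genes that passed filterByExpr were scaled by TMM and compared by the quasi-likelihood test of edgeR 4.0.16 in R 4.3.3, with 1 coefficient for each group over 37 libraries. The p-values were adjusted by the Benjamini-Hochberg method over all genes, with a threshold of 0.1. CPM are TMM-scaled, and CPM of C105 comes from the scaling of all 38 libraries. SEs were derived from the fold change and its F statistic, and 95% intervals use 33 degrees of freedom. Near-identical genes may share estimated counts.

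The members and lists were chosen with earlier results of these data known, which also served to take C105 as the library left out. Named genes were all members, up to 4 genes with the smallest adjusted p of each list and the 3 genes most like each called member. A few listed genes are not reported here. The first principal component used the 500 most variable genes of log2 CPM (prior count 2). Alternatives were all 38 libraries, DESeq2 1.42.0, the 2 groups compared only, RLE normalization, other filters, a length trend taken out (lowess span 0.3), limma 3.58.1 on log2(TPM + 1) and log2(TPM + 0.1), 0.05 as threshold, and leaving out each library. The edgeR test was checked on simulated counts. Promoters and proteins were planned but not used here.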

Additional observations from a re-analysis of the deposited data

Results flagged for a closer look

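Of 32 sets of libraries (8 genes in 4 groups, C105 included), 5 held a library far from the rest of its group, with a gap to the nearest library, relative to the range of the group, above Dixon's 95% critical value. By its definition that limit marks about 1 in 20 groups by chance, which was not measured on these data. C105 had 31.8 CPM of Cpt1a, against 302 to 486 CPM in the other controls. H113 had 21.3 CPM of Slc22a5, against 37.5 to 51.3 CPM in the other HFD livers. Crot was far from the rest in 3 groups. It was high in DII137 at 627 CPM (others 258 to 424 CPM), in H110 at 767 CPM (others 319 to 472 CPM) and in C106 at 1092 CPM (others 374 to 738 CPM). The gap of C106, 0.493 of the range, was the smallest of the 5 and only just passed. C105 was among the controls there, and the check was not repeated without it.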

How the results depend on the processing

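Over the 480 values (8 genes, 6 comparisons, 10 alternatives), 464 kept their direction when called and their side of the threshold, 4 lost a call, 12 gained one and no called value changed sign, while 11 uncalled values did. Against 0 carnitine genes called for Dose II vs. HFD, 2 were called by DESeq2 and 1 each with the 2 groups compared only, with at least 10 counts in every library, and by limma on log2(TPM + 1) and log2(TPM + 0.1). With each library left out, 3 to 6 genes were called for HFD vs. control (main 6, 3 without C106) and 0 to 1 for Dose II vs. HFD. Over all genes the same fits gave 2878 to 3478 and 300 to 629 calls. Bbox1 in HFD vs. control was also lost at a threshold of 0.05 and by limma on log2(TPM + 0.1) (adjusted p = 0.105). Cpt2 in Dose II vs. control was called by limma on TPM (−0.32 and −0.33) and without DII131 or DII137, and Slc25a20 in Dose I vs. control by limma on TPM (−0.23 for both pseudocounts) and with the length trend taken out (−0.20).

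Over all genes, C105 in the fit gave 1409 calls in place of 3296 for HFD vs. control, 1972 in place of 3704 for Dose I vs. control, 244 in place of 512 for Dose II vs. HFD and 5 in place of 17 for Dose I vs. HFD. For Dose I vs. HFD DESeq2 called 80, the 2 groups alone 6, no filter 8, limma on TPM 8 and a threshold of 0.05 gave 5, which for Dose II vs. HFD gave 230. By limma on log2(TPM + 1) genes that rose and fell were 151 and 439 for Dose II vs. HFD (edgeR 307 and 205), 3 and 5 for Dose I vs. HFD (14 and 3), 1330 and 2469 for Dose I vs. control (1878 and 1826) and 1555 and 2821 for Dose II vs. control (2177 and 2133). The cause was not tested. No paired analysis was possible because no replicate number occurs in more than 1 group.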
